A study of Mus musculus with 50 samples.

Results

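Ribosome-bound mRNA was compared between D1 neurons and D2 neurons of the nucleus accumbens (NAc) in mice that were susceptible (Sus) after chronic social defeat stress. The members were the 10 immunoprecipitation (IP) libraries labelled as D1 Sus (n = 5) or D2 Sus (n = 5), of 50 samples in the series. They were chosen by label, with earlier results of these data known. All mice carried the RiboTag (RT) allele, which puts an HA epitope on a ribosomal protein in cells with Cre recombinase. D1 Sus libraries came from RT; D1-Cre mice and D2 Sus libraries from RT; D2-Cre mice, both described as C57BL/6 and 8 to 12 weeks old, and the study's methods give GENSAT BAC transgenic lines as the source of Cre. An IP library is therefore meant to report every NAc cell in which that transgene was active, and not MSNs alone. Markers of glia and of cortical neurons, given below, were also present in the IPs. Each genotype rests on a single Cre line. Daily defeat bouts of 10 min were given on at most 10 days, per the labels (the study's methods give a shorter bout), and a social interaction test given 24 h later sorted mice into Sus and resilient (Res). Control (Con) mice of both genotypes were housed without defeat, so that the 9 Con IPs (4 D1, 5 D2) and 9 Res IPs (4 D1, 5 D2) shared every allele with the Sus IPs. Inputs were RNA of the homogenate before precipitation, with 3 D1 Sus and 3 D2 Sus libraries. Each library pooled 2 mice, so that the spread between libraries is a spread between pools. The libraries were run in several sequencing sets whose membership is not named in the labels, and no within-set value could be given.

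Medium spiny neurons (MSNs) are the GABAergic projection neurons that make up most of the NAc. D1-MSNs carry the dopamine D1 receptor, which raises cyclic AMP, and release dynorphin and substance P. D2-MSNs carry the dopamine D2 receptor, which lowers cyclic AMP, together with an adenosine receptor that raises it, and release enkephalin. Both types receive glutamate from cortex, hippocampus, thalamus and amygdala, and their balance is widely studied in stress and reward.

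The 10 libraries held 23398742 to 31009626 counts on genes, with a median of 26811315 in D1 Sus and 25583525 in D2 Sus. Values below are counts per 1e6 counts on genes, scaled by TMM factors (CPM), and they are compared within a gene and not between genes, since they are not divided by transcript length. Within a line, pairs of libraries correlated at r = 0.987 to 0.997 over 14224 genes, and pairs of a D1 Sus and a D2 Sus library at 0.981 to 0.991. In a multidimensional scaling plot of the 500 most different genes, the first dimension (32.3% of the variance) parted the lines. D1 Sus 3 lay at one end of it (-1.17) and D2 Sus 1 at the other (1.11), and results that lean on these libraries are given below with and without them. Reads aligned outside annotated exons made up 10.4 to 13.9% in D1 Sus and 11.1 to 17.6% in D2 Sus (two-sided exact permutation test, p = 0.206).

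The labels were checked first with transcripts that define each neuron type. *Drd1*, the D1 receptor, was at 328, 302, 277, 293 and 314 CPM in D1 Sus 1 to 5 and at 125, 107, 157, 133 and 107 CPM in D2 Sus 1 to 5. *Pdyn*, the dynorphin precursor, was at 555, 472, 392.4, 426 and 458 CPM in D1 Sus and at 117, 71.7, 124, 98.2 and 66.4 CPM in D2 Sus. Each of the 5 D1 Sus libraries was above every D2 Sus library for both transcripts. *Drd2*, the D2 receptor, was at 88.2, 86.8, 76.4, 78.8 and 96.6 CPM in D1 Sus and at 289, 319, 328, 334 and 365 CPM in D2 Sus. *Adora2a*, that adenosine receptor, was at 283, 280.2, 222, 254 and 286 CPM in D1 Sus and at 699, 788, 768, 828 and 812 CPM in D2 Sus. Here every D2 Sus library was above every D1 Sus library, and no library went against its label.

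By edgeR's quasi-likelihood test with Benjamini-Hochberg adjustment, *Pdyn* was 4.82-fold higher in D1 Sus (log2 fold change 2.27 ± 0.16 SE, adjusted p = 7.73e-10) and *Drd1* was 2.40-fold higher (1.27 ± 0.11, adjusted p = 1.03e-08). *Drd2* was 3.83-fold higher in D2 Sus (log2 fold change D1 over D2 -1.94 ± 0.08, adjusted p = 1.72e-16) and *Adora2a* 2.94-fold higher (-1.56 ± 0.09, adjusted p = 2.35e-13). Further transcripts of the same kind followed these directions. *Tac1*, the substance P precursor, was 1.71-fold higher in D1 Sus (269 to 339 against 146 to 209 CPM), and *Chrm4*, the M4 muscarinic receptor, 1.79-fold higher (112 to 127 against 54.7 to 87.1 CPM). *Penk*, the enkephalin precursor, was 2.76-fold higher in D2 Sus (4369 to 5659.9 against 1631 to 2056 CPM), and *Gpr6*, an orphan receptor of D2-MSNs, 3.06-fold higher (100.2 to 151 against 35.8 to 46.2 CPM). The transcripts of the opposite type were present in each line. The plot of these 8 transcripts by library shows the 2 groups apart for each.

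**Figure D1:**
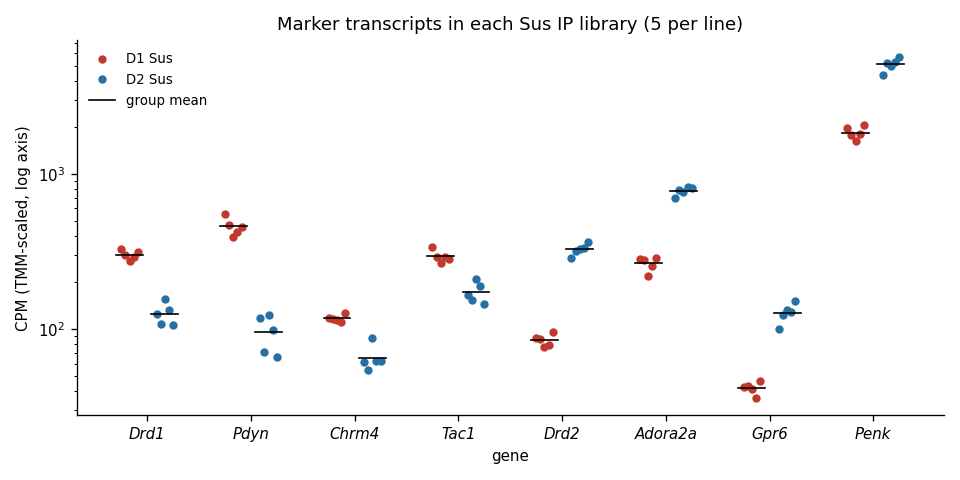
CPM (TMM-scaled, log axis) of 8 marker transcripts in each D1 Sus (red) and D2 Sus (blue) IP library, with the group mean as a black line. The 5 D1 Sus points lie above the 5 D2 Sus points for *Drd1*, *Pdyn*, *Chrm4* and *Tac1* and below them for *Drd2*, *Adora2a*, *Gpr6* and *Penk*.

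Relative to the inputs of the same line, on CPM without TMM factors, *Drd1* had a mean of 303 in D1 Sus IPs against 208 in D1 Sus inputs, and 126 in D2 Sus IPs against 171 in D2 Sus inputs. *Drd2* had a mean of 327 in D2 Sus IPs against 101 in D2 Sus inputs, and 85.3 in D1 Sus IPs against 83.9 in D1 Sus inputs. *Drd1* was thus lower in the IP of the other line than in its input, whereas *Drd2* in D1 Sus IPs was at its input level.

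The promoters of *Pdyn* and *Drd2* are shown because these genes had the largest folds of the D1 and D2 markers above. The sequences are from RefSeq (GRCm38.p6), 250 bases before to 50 after the start, 5′ to 3′. The *Pdyn* window is at chr2:129699889-129700188 on the minus strand and the *Drd2* window at chr9:49340153-49340452 on the plus strand. Capitals mark CCCNNGGG, the core that EBF family factors recognize, which reads the same on both strands. *Ebf1*, the D1-enriched member of that family, is described below.
Pdyn: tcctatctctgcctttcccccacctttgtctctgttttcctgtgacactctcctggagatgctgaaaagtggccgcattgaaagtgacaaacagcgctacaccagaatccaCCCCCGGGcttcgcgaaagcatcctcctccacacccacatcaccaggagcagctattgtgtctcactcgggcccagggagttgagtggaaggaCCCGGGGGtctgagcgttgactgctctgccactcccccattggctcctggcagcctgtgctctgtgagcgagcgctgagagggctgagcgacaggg
Drd2: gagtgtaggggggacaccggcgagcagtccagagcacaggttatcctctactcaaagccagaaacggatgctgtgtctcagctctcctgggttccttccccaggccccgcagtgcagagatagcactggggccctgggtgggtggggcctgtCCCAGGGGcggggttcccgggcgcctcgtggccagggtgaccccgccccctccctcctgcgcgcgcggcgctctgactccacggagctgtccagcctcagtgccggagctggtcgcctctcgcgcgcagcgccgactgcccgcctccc
*Pdyn* held 2 such matches and *Drd2* 1, and neither held TGACG, the half-site of the cyclic AMP response element, on either strand. Of the 14224 genes tested, 11042 had an entry, of which 18.3% held CCCNNGGG and 31.3% TGACG. Among genes called higher in D1 Sus 20.9% of 412 promoters held CCCNNGGG and 24.5% held TGACG, and among genes called higher in D2 Sus 17.7% of 158 held CCCNNGGG and 19.6% held TGACG. These shares are descriptions of letters in a window, not of binding.

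Over all genes, a call was a fold change over 1.5 with an adjusted p under 0.05. D1 Sus and D2 Sus differed in 779 of 14224 genes (5.48%), of which 556 were higher in D1 Sus (3.91%) and 223 higher in D2 Sus (1.57%). By adjusted p alone 2468 genes passed, 1336 higher in D1 Sus and 1132 higher in D2 Sus. More than 2-fold differences were called for 277 genes in D1 Sus and 88 in D2 Sus, and more than 4-fold for 50 and 14. The 5 values of one line did not overlap the 5 of the other for 405 of the 556 and 138 of the 223, beside 11.4% of all genes tested. Because the genes were called on these same values, a larger share without overlap is fixed in part by that choice. The median log2 fold change of all tested genes was -0.02. In bulk libraries, fewer cells of a type and less RNA per cell cannot be told apart.

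**Figure D2:**
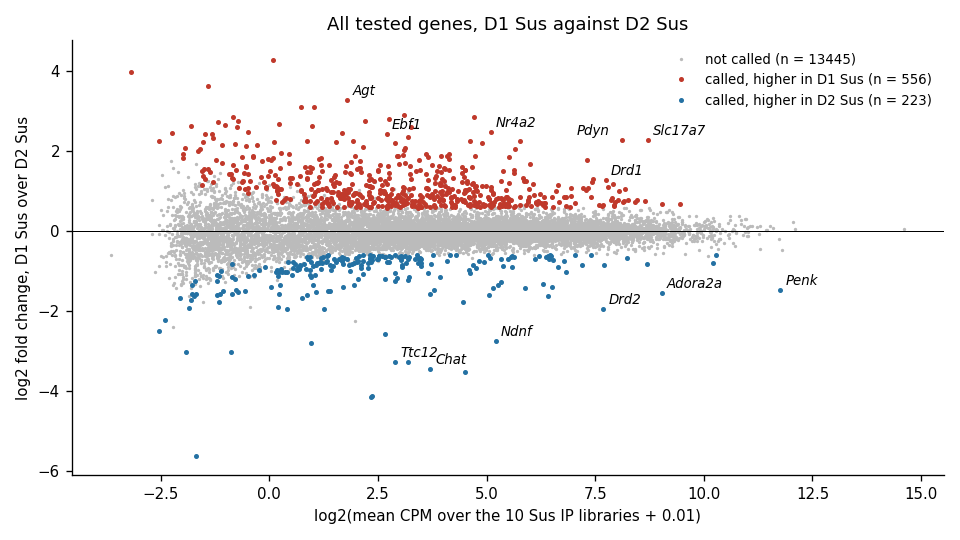
Each point is 1 of 14224 tested genes: x, log2 of the mean CPM over the 10 Sus IP libraries plus 0.01, y, log2 fold change of D1 Sus over D2 Sus. Red points are the 556 genes called higher in D1 Sus and blue points the 223 called higher in D2 Sus, with some of the genes named in the text labelled.

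The genes of largest fold toward D1 Sus, among called genes with no overlap and at least 5 CPM, included secreted factors, receptors and transcription factors. *Agt*, which encodes angiotensinogen, was at 10.1, 8.23, 3.50, 6.44 and 3.21 CPM in D1 Sus and at 1.38, 0.686, 0.571, 0.314 and 0.165 CPM in D2 Sus. *Bdnf*, brain-derived neurotrophic factor, was at 6.65, 10.99, 17.97, 14.0 and 9.29 CPM in D1 Sus and at 1.48, 1.17, 1.57, 1.81 and 2.43 CPM in D2 Sus. *Nr4a2*, an orphan nuclear receptor, was at 54.8, 54.0, 63.4, 52.9 and 64.3 CPM in D1 Sus and at 5.21, 12.3, 10.3, 11.4 and 13.2 CPM in D2 Sus. The D1 Sus values of *Nr4a2* were close together, whereas those of *Agt* and *Bdnf* spread over a wider range than their own lowest value. *Agt* was 9.72-fold higher (adjusted p = 6.29e-05), *Bdnf* 6.98-fold (adjusted p = 1.61e-05) and *Nr4a2* 5.55-fold (adjusted p = 9.48e-05). On CPM without TMM factors, *Agt* was lower in the IPs of both lines than in their inputs. Its means were 6.33 against 25.9 in D1 Sus and 0.628 against 24.7 in D2 Sus. *Bdnf* and *Nr4a2* were higher in D1 Sus IPs than in their inputs (11.8 against 4.61 and 57.8 against 18.4).

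*Ebf1*, a transcription factor required for the development of D1-MSNs, was at 9.60, 13.7, 9.67, 10.8 and 11.3 CPM in D1 Sus and at 3.54, 2.58, 1.43, 1.14 and 1.40 CPM in D2 Sus (5.39-fold, adjusted p = 4.05e-08). *Ctgf*, a matricellular growth factor, was at 41.6, 34.6, 65.9, 44.2 and 41.6 CPM in D1 Sus and at 0.451, 3.07, 7.67, 11.4 and 9.62 CPM in D2 Sus (7.16-fold, adjusted p = 0.00109). *Slc17a7*, the vesicular glutamate transporter VGLUT1 of cortical excitatory neurons, was at 539.6, 487, 1082, 713 and 653 CPM in D1 Sus and at 13.4, 114, 172, 189 and 236 CPM in D2 Sus (4.81-fold, adjusted p = 0.00532). With only the Sus IPs fitted and the replicate number as a block, *Slc17a7* lost its call (adjusted p = 0.0679 by edgeR's quasi-likelihood test). D1 Sus 3 was the highest and D2 Sus 1 the lowest library for both *Ctgf* and *Slc17a7*, but not for *Ebf1*. The remaining genes in this group were *Medag* (7.47-fold), *Nmbr*, the neuromedin B receptor (6.66-fold), *Adcyap1*, the precursor of the peptide PACAP (6.01-fold), *Samd9l* (5.43-fold), *Frzb*, a secreted Wnt antagonist (5.11-fold), and *Pdyn*.

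Toward D2 Sus, genes of largest fold included several on the list of cholinergic neuron markers. *Chat*, which makes acetylcholine, was at 3.00, 2.50, 1.61, 1.83 and 2.01 CPM in D1 Sus and at 31.0, 22.4, 21.2, 24.8 and 19.97 CPM in D2 Sus. *Slc5a7*, the high-affinity choline transporter, was at 4.07, 5.59, 2.98, 3.00 and 2.37 CPM in D1 Sus and at 61.6, 36.6, 40.4, 44.8 and 25.5 CPM in D2 Sus. D2 Sus 1 was the highest library for both and D2 Sus 5 the lowest of the D2 Sus libraries. The folds were 10.9 for *Chat* (adjusted p = 3.36e-09) and 11.5 for *Slc5a7* (adjusted p = 1.99e-08). *Slc18a3*, the vesicular acetylcholine transporter (17.5-fold), lies inside *Chat* on the same strand of chromosome 14, so the counts of this pair are not independent. *Tacr1*, the substance P receptor, was 3.40-fold higher in D2 Sus (26.9 to 39.0 against 8.89 to 11.8 CPM), and *Slc10a4*, a vesicular protein of cholinergic and monoaminergic neurons, 9.58-fold higher. Cholinergic interneurons also express *Drd2*.

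Other D2 genes of largest fold were *Ttc12*, *Ndnf*, *Mdfic*, *Drd2*, *Gpr6* and *Ecel1*. *Ndnf*, a secreted neuron-derived factor, was at 6.42, 5.91, 17.1, 11.02 and 7.59 CPM in D1 Sus and at 49.7, 44.4, 64.8, 67.1 and 96.9 CPM in D2 Sus (6.68-fold, adjusted p = 1.26e-07). Its inputs leaned the same way, with means without TMM factors of 7.97 CPM in D1 Sus and 22.9 CPM in D2 Sus. That log2 difference was -1.54 ± 0.55 (unadjusted p = 0.0157 by edgeR's quasi-likelihood test) and did not pass after adjustment. *Mdfic* was at 1.47 to 1.98 CPM in D1 Sus and 8.83 to 12.6 CPM in D2 Sus (5.93-fold, adjusted p = 1.61e-09), and *Ecel1*, an endopeptidase-like enzyme, at 7.19 to 27.3 and 30.9 to 77.3 CPM (3.05-fold, adjusted p = 3.44e-04).

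*Ttc12* stands beside *Drd2* on chromosome 9. It was at 2.07, 1.63, 1.09, 1.21 and 0.893 CPM in D1 Sus and at 13.2, 12.5, 13.8, 14.8 and 13.2 CPM in D2 Sus, 9.71-fold higher (log2 fold change -3.28 ± 0.16, adjusted p = 8.44e-16). Between the genes lies *Ankk1*, which had at most 1 count in any D1 Sus library and 0.242 to 0.942 CPM in D2 Sus. Its adjusted p was 3.69e-06, and no fold is given for a gene at this count. Within 250 kb of *Drd2* (chromosome 9, 49340627 to 49408177 in GENCODE vM21), 6 genes were tested, of which *Drd2*, *Ttc12* and *Ankk1* were called, all higher in D2 Sus. *Ncam1*, the neural cell adhesion molecule next to *Ttc12*, was at 531 and 519 CPM (log2 fold change 0.03, adjusted p = 0.707). Around *Drd1* on chromosome 13, 3 genes were tested, and *Sfxn1*, a mitochondrial serine transporter, was called with *Drd1* (53.6 against 35.0 CPM, log2 fold change 0.62, adjusted p = 3.32e-09), whereas *Hrh2* was not. Over a longer list of 12 genes near *Drd2*, 9 were tested, and *Htr3a* was called toward D1 Sus beside the 3 toward D2 Sus.

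Gene lists of known roles were then described by counts of called members, to be read against 3.91% of all tested genes higher in D1 Sus and 1.57% higher in D2 Sus. Some genes are in more than 1 list. The 2 libraries at the ends of the first dimension, D1 Sus 3 and D2 Sus 1, were the highest and the lowest of their groups for many of these genes. D1 Sus 3 held the highest D1 Sus value in 60.1% of the 556 genes called higher in D1 Sus, against 26.7% of all tested genes, and D2 Sus 1 held the lowest D2 Sus value in 34% of them, against 23.5%. With both left out, 692 genes were called (494 higher in D1 Sus, 198 higher in D2 Sus), of which 580 were among the 779.

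Peptide genes were called in both directions. Of 12 tested opioid and tachykinin genes (14 listed), *Pdyn* and *Tac1* were higher in D1 Sus and *Penk*, *Tacr1* and *Oprd1* higher in D2 Sus, with a median log2 fold change of -0.29. *Oprd1*, the delta opioid receptor to which enkephalin binds, was at 25.9, 23.5, 18.3, 21.8 and 29.3 CPM in D1 Sus and at 47.1, 46.4, 60.1, 52.8 and 78.2 CPM in D2 Sus (2.40-fold, adjusted p = 1.16e-06). Among other neuropeptide precursors, 25 of 47 listed genes were tested, 10 were higher in D1 Sus and 2 higher in D2 Sus, with a median of 0.70. Without D1 Sus 3 and D2 Sus 1 these counts were 8 and 2. They included *Agt* and *Adcyap1*, and, at lower levels, *Pthlh*, the precursor of parathyroid hormone-related peptide (2.70 to 4.20 against 0.165 to 1.03 CPM, adjusted p = 7.91e-08), and *Vip*, vasoactive intestinal peptide (1.52 to 2.70 against 0.193 to 0.743 CPM, adjusted p = 4.76e-04). Of the 2 toward D2 Sus, *Npy* is neuropeptide Y and *Edn1* is endothelin 1.

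Receptors for other peptides were higher in D1 Sus in 14 and higher in D2 Sus in 3 of 50 tested (57 listed). *Sstr2*, a somatostatin receptor, was at 21.3, 19.6, 25.8, 21.8 and 24.96 CPM in D1 Sus and at 6.89, 6.30, 8.17, 9.35 and 10.2 CPM in D2 Sus (2.78-fold, adjusted p = 1.64e-06). *Sstr1*, *Sstr3* and *Sstr4* were also higher in D1 Sus, with *Sstr4* 2.96-fold (adjusted p = 3.35e-06). *Calcr*, the calcitonin receptor, was 2.76-fold higher in D2 Sus (5.95 to 8.30 against 9.45 to 30.3 CPM, adjusted p = 1.08e-05). The oxytocin receptor *Oxtr* was among the 14 and the angiotensin receptor *Agtr1a* among the 3.

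Of 27 amine receptors tested (29 listed), 8 were higher in D1 Sus and *Drd2* alone higher in D2 Sus. With D1 Sus 3 and D2 Sus 1 left out, 5 were called toward D1 Sus. *Adra2a*, an inhibitory adrenergic receptor, was at 16.8, 16.98, 30.6, 21.6 and 16.6 CPM in D1 Sus and at 8.95, 7.91, 7.53, 7.81 and 7.26 CPM in D2 Sus (2.60-fold, adjusted p = 1.18e-06). Among 13 acetylcholine receptors tested (18 listed), 3 were higher in D1 Sus, *Chrm4*, the M3 receptor *Chrm3* (1.60-fold, adjusted p = 1.64e-04) and *Chrna5*, a nicotinic subunit. *Chrna5* was under 1.2 CPM in D1 Sus and lost its call when D1 Sus 3, D1 Sus 4, D2 Sus 1, D2 Sus 4 or D2 Sus 5 was left out. No acetylcholine receptor was called toward D2 Sus.

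Of 13 adenosine and cannabinoid genes tested (19 listed), *Adora2a*, *Nt5e* and *Adk* were higher in D2 Sus and *Cnr1*, *Faah* and *Napepld* higher in D1 Sus. *Nt5e*, the ectoenzyme that forms adenosine from AMP, was at 22.9, 21.1, 21.7, 21.7 and 20.4 CPM in D1 Sus and at 52.1, 55.6, 61.8, 48.9 and 57.4 CPM in D2 Sus (2.56-fold, adjusted p = 8.07e-13). *Adk*, adenosine kinase, was 1.62-fold higher in D2 Sus (adjusted p = 2.22e-09). *Cnr1*, the CB1 cannabinoid receptor, was at 137, 145.2, 223, 166 and 130.0 CPM in D1 Sus and at 92.3, 87.4, 83.9, 89.1 and 85.8 CPM in D2 Sus (1.83-fold, adjusted p = 2.19e-05). The groups did not overlap for any of these 3 transcripts, and D1 Sus 3 was the highest library for *Cnr1*.

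Orphan and adhesion G-protein coupled receptors were split, with 9 higher in D1 Sus and 5 higher in D2 Sus of 74 tested (102 listed). Those toward D2 Sus included *Gpr6*, *Gpr149*, *Celsr1* and *Gpr52*, a receptor known to signal through cyclic AMP in D2-MSNs. *Gpr52* was at 34.9, 32.2, 32.6, 31.1 and 30.7 CPM in D1 Sus and at 82.9, 86.6, 90.1, 92.8 and 78.2 CPM in D2 Sus (2.67-fold, adjusted p = 3.50e-13). Of 72 tested genes for G proteins, RGS proteins, adenylyl cyclases and phosphodiesterases (90 listed), 7 were higher in D1 Sus and 0 higher in D2 Sus. *Gnb4*, a G protein beta subunit, was at 135, 122, 122, 129.6 and 135 CPM in D1 Sus and at 63.7, 54.3, 71.3, 76.2 and 56.8 CPM in D2 Sus (1.99-fold, adjusted p = 6.83e-11). *Adcy2*, an adenylyl cyclase, was 1.61-fold higher in D1 Sus (adjusted p = 2.16e-07).

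Transcripts that both MSN types share had a median below 0. Of 22 such genes, all tested, 3 were called higher in D2 Sus and 0 higher in D1 Sus, the median log2 fold change was -0.38, and the groups did not overlap in 14, all toward D2 Sus, beside 11.4% of all tested genes in either direction. *Rxrg*, a retinoid X receptor, was at 67.3 to 71.7 CPM in D1 Sus and 91.3 to 126 CPM in D2 Sus (1.64-fold, adjusted p = 1.45e-07). *Hpca*, hippocalcin, lay at the edge of the fold limit, and lost its call under RLE factors, with DESeq2, and with any of D1 Sus 2, D1 Sus 3, D1 Sus 4 and D2 Sus 5 left out. Cortical markers, given below, were higher in D1 Sus, and their part in this median was not tested.

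Among 48 tested transcription factors of striatal neurons (50 listed), 7 were higher in D1 Sus and 8 higher in D2 Sus. Those toward D1 Sus included *Ebf1*, *Isl1*, *Zfp521*, *Gsx2*, *Satb1* and *St18*, of which *Isl1* is, like *Ebf1*, a known factor of the D1 lineage. Toward D2 Sus were *Sp9*, *Six3*, *Tshz1*, *Dlx2*, *Pou3f1*, *Pou3f4*, *Rxrg* and *Zic1*. *Sp9*, a zinc finger factor needed for D2-MSNs, was at 20.4, 22.3, 17.1, 16.002 and 20.7 CPM in D1 Sus and at 50.4, 55.5, 47.1, 51.4 and 52.2 CPM in D2 Sus (2.66-fold, adjusted p = 2.35e-13). *Six3*, a homeobox factor, was 1.68-fold higher in D2 Sus (adjusted p = 7.13e-09), and *Tshz1* 2.04-fold higher (64.1 to 84.0 against 135 to 179 CPM, adjusted p = 3.38e-09). The spread of *Sp9* within each line was small beside the gap between the lines.

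Potassium channel genes were called in 1 direction. Of 72 tested (92 listed), 12 were higher in D1 Sus and 0 higher in D2 Sus, and without D1 Sus 3 and D2 Sus 1 the count was 11. *Kcnc4*, a Kv3 channel, was 2.20-fold higher (29.3 to 48.0 against 15.2 to 19.4 CPM, adjusted p = 4.95e-05), *Kcnab3*, a Kv beta subunit, 1.98-fold (32.2 to 36.5 against 14.2 to 20.7 CPM, adjusted p = 1.99e-05) and *Kcna6*, a Kv1 channel, 1.62-fold (75.9 to 98.8 against 47.7 to 62.9 CPM, adjusted p = 1.37e-06). G-protein gated inward rectifiers *Kcnj3*, *Kcnj6* and *Kcnj9* were among the 12, and *Kcnj9* lost its call without D1 Sus 3 or D2 Sus 1. Calcium and sodium channels had 2 genes higher in D1 Sus and 1 higher in D2 Sus of 57 tested (68 listed), a share near the background. *Trpc5*, a cation channel, was 1.75-fold higher in D1 Sus (adjusted p = 2.82e-04). *Cacng6*, also called toward D1 Sus, was under 1.2 CPM and lost its call without D1 Sus 3.

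Glutamate receptor subunits were called in both directions, at 11.8% beside 5.48% of all tested genes. Of 17 tested AMPA, kainate, delta and NMDA receptor genes (18 listed), *Grin3a* was higher in D1 Sus and *Grik3*, a kainate receptor, higher in D2 Sus (1.59-fold, adjusted p = 2.13e-05), and both calls were lost when D2 Sus 5 was left out. Of 21 AMPA receptor auxiliary genes, all tested, 3 were higher in D1 Sus and 0 higher in D2 Sus, while the median log2 fold change was -0.07. *Shisa6*, a transmembrane auxiliary subunit that slows AMPA receptor desensitization, was at 15.8, 15.7, 20.5, 16.6 and 17.2 CPM in D1 Sus and at 10.4, 8.56, 8.35, 10.8 and 9.04 CPM in D2 Sus, 1.82-fold higher in D1 Sus (log2 fold change 0.87 ± 0.12, adjusted p = 7.85e-06). *Cnih3*, a cornichon protein, was 2.14-fold higher (33.3 to 68.9 against 17.4 to 25.1 CPM) and *Nptx1*, a secreted pentraxin that clusters AMPA receptors, 2.04-fold higher (159 to 291 against 76.0 to 122.7 CPM). All 3 had their highest value in D1 Sus 3. Among 15 metabotropic glutamate and GABA-B receptor genes and their partners, *Grm2*, *Grm8* and *Gabbr2* were higher in D1 Sus, with *Grm8* 2.08-fold (9.11 to 9.72 against 3.51 to 6.21 CPM, adjusted p = 4.48e-05). *Grm2* lost its call with D1 Sus 3 and D2 Sus 1 both left out. Of 18 tested GABA-A and glycine receptor subunits (24 listed), *Glra2* alone was called (1.66-fold higher in D1 Sus, adjusted p = 0.00276).

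Synaptic adhesion genes were higher in D1 Sus in 12 and in D2 Sus in 2 of 55 tested (56 listed). *Lingo2*, a leucine-rich repeat protein, was at 26.1, 25.3, 26.9, 26.9 and 28.1 CPM in D1 Sus and at 14.6, 10.1, 9.96, 9.46 and 8.46 CPM in D2 Sus (2.52-fold, adjusted p = 9.96e-10). *Cntnap3*, a contactin-associated protein, was 2.14-fold higher in D1 Sus (30.9 to 41.0 against 15.5 to 18.2 CPM, adjusted p = 3.32e-09). *Cbln1*, *Cbln2*, *Nxph1*, *Nxph3* and *Nxph4*, which encode secreted partners of neurexins, were among the 12. The 2 toward D2 Sus were *Slitrk6* and *Flrt3*, and *Flrt3* lost its call without D1 Sus 3.

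Axon guidance genes were called at about the background, with 3 higher in D1 Sus of 66 tested (71 listed), *Sema7a* (1.60-fold, adjusted p = 1.77e-05), *Ntng2* and *Ephb3*. Without D1 Sus 3 and D2 Sus 1 the counts were 5 toward D1 Sus and 1 toward D2 Sus, and *Sema7a* was not among them. Cadherins gave 2 higher in D1 Sus and 1 higher in D2 Sus of 28 tested (34 listed). *Cdh20* was 1.99-fold higher in D1 Sus (adjusted p = 8.58e-06), while *Cdh15* overlapped between the lines and lost its call when D1 Sus 3, D1 Sus 4, D2 Sus 3 or D2 Sus 4 was left out. Without both D1 Sus 3 and D2 Sus 1 the cadherin counts were 4 and 0. Collagens and matrix genes gave 3 higher in D1 Sus, all ADAMTS proteases, and 5 higher in D2 Sus of 72 tested (99 listed), with *Lamb3*, a laminin subunit, 1.61-fold higher in D2 Sus (adjusted p = 1.61e-05).

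Growth factors and their receptors were called in 16 of 65 tested (70 listed), 12 higher in D1 Sus and 4 higher in D2 Sus. *Igfbp4*, which binds insulin-like growth factors, was at 55.7, 58.8, 66.3, 63.5 and 64.2 CPM in D1 Sus and at 21.3, 22.9, 22.5, 25.6 and 17.4 CPM in D2 Sus (2.81-fold, adjusted p = 3.84e-13). *Gfra1*, a co-receptor for GDNF, was at 97.8, 86.4, 64.2, 85.8 and 88.0 CPM in D1 Sus and at 49.0, 32.1, 36.5, 33.6 and 24.4 CPM in D2 Sus (2.40-fold, adjusted p = 3.78e-08). *Nrg3*, a neuregulin, was 1.94-fold higher in D1 Sus (adjusted p = 1.10e-07). *Bdnf* was also higher in D1 Sus, and *Egf*, *Bmp7* and *Wnt7a* were higher in D2 Sus. In *Gfra1* the library D1 Sus 3 was the lowest of its group, unlike in *Slc17a7*.

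Markers of striosome, matrix and minor MSN subtypes gave 7 higher in D1 Sus and 5 higher in D2 Sus of 32 tested. *Casz1*, a zinc finger factor of a minor MSN subtype, was 2.21-fold higher in D2 Sus (4.55 to 7.04 against 11.3 to 13.9 CPM, adjusted p = 1.31e-07), and *Stard5* 2.08-fold higher (adjusted p = 1.50e-06). Genes of synaptic vesicles and exocytosis gave 8 higher in D1 Sus and 1, *Syt6*, higher in D2 Sus of 58 tested (62 listed). *Rph3a*, rabphilin, was 1.67-fold higher in D1 Sus (334 to 409 against 202 to 240.4 CPM, adjusted p = 5.95e-08). *Syt6* was 1.52-fold higher in D2 Sus and lost its call when D1 Sus 3, D2 Sus 3, D2 Sus 4 or D2 Sus 5 was left out.

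Immediate early genes were called toward D1 Sus in 11.1% and genes of glucocorticoid and CRH signaling in 9.52%, beside 3.91% of all tested genes. Of 27 immediate early genes, all tested, *Bdnf*, *Nr4a2* and *Ier2* were higher in D1 Sus and 0 higher in D2 Sus, with a median log2 fold change of 0.11. *Ier2* lost its call when D1 Sus 3, D1 Sus 4 or any of D2 Sus 1 to 4 was left out. *Fos*, *Egr1* and *Arc* were among the 24 not called. Of 21 tested genes of glucocorticoid and CRH signaling (22 listed), *Crh*, corticotropin-releasing hormone, and *Crhbp*, its binding protein, were higher in D1 Sus. *Crh* was at 11.4, 9.94, 7.77, 11.5 and 7.81 CPM in D1 Sus and at 7.66, 5.37, 2.86, 2.55 and 0.536 CPM in D2 Sus (2.52-fold, adjusted p = 0.0148), so that the lowest D1 Sus library lay just above the highest D2 Sus library. *Crh* lost its call when only the Sus IPs were fitted, and *Crhbp* without D2 Sus 1. Ribosomal protein genes gave 0 called of 78 tested (84 listed), and oxidative phosphorylation genes gave 1, *Cox6a2*, of 76 tested (82 listed).

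**Figure D3:**
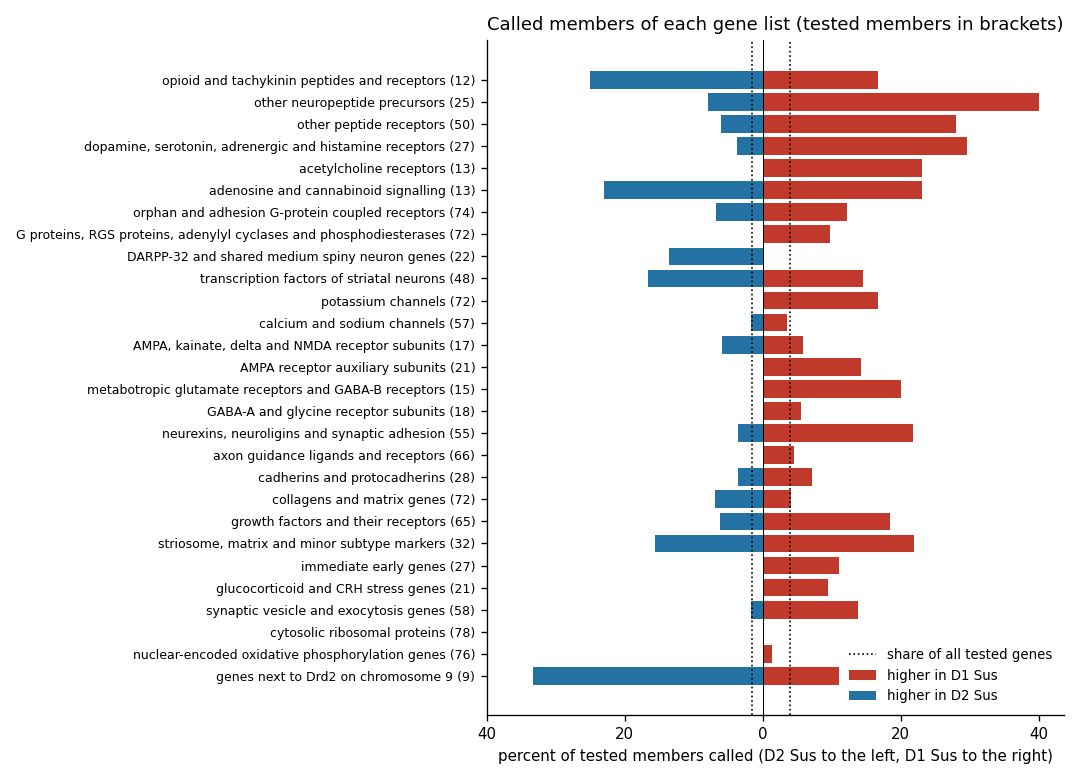
Percent of tested members of each of 28 gene lists that were called higher in D1 Sus (red, right) or higher in D2 Sus (blue, left), with the number tested in brackets. Dotted lines give the share of all tested genes, 3.91% toward D1 Sus and 1.57% toward D2 Sus, and ribosomal protein genes show no bar.

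Markers of other cell types were measured in the same libraries. Of 12 markers of cortical excitatory neurons, all tested, 9 were higher in D1 Sus and 0 higher in D2 Sus. Their summed level was 771, 713, 1494, 992 and 915 CPM in D1 Sus and 86.8, 206, 274, 309 and 366 CPM in D2 Sus (two-sided exact permutation test, p = 0.00794, the smallest this design can give, adjusted p = 0.0357 over 9 lists). *Tbr1*, a transcription factor of deep cortical layers, was at 72.1, 70.7, 136, 86.6 and 83.2 CPM in D1 Sus and at 5.63, 14.98, 21.3, 26.4 and 26.4 CPM in D2 Sus (4.76-fold, adjusted p = 6.31e-04). Every D1 Sus library was above every D2 Sus library in the sum. With D1 Sus 3 and D2 Sus 1 left out, 6 of the 12 were called and the median log2 fold change was 1.32 in place of 1.82. The same sum, without TMM factors, was 439 to 640.1 CPM in D1 Sus inputs and 216 to 1228 CPM in D2 Sus inputs, against means of 977 in D1 Sus IPs and 248 in D2 Sus IPs. The part of these transcripts in the genes higher in D1 Sus was not tested.

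Cholinergic interneuron markers moved the other way, with 6 of 8 higher in D2 Sus and 0 higher in D1 Sus. Their sum was 35.3, 36.3, 21.1, 33.5 and 27.4 CPM in D1 Sus and 187, 133, 136, 151 and 101 CPM in D2 Sus (exact permutation test, p = 0.00794, adjusted p = 0.0357). Without TMM factors the means were 30.8 in D1 Sus IPs and 142 in D2 Sus IPs, beside 129.6 to 146 CPM in D1 Sus inputs and 76.2 to 187 CPM in D2 Sus inputs. Thus D1 Sus IPs were below their inputs for these markers, and D2 Sus IPs were within the range of theirs. Leaving out D1 Sus 3 and D2 Sus 1 gave the same count of 6. Their part in the genes higher in D2 Sus was not tested.

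**Figure D4:**
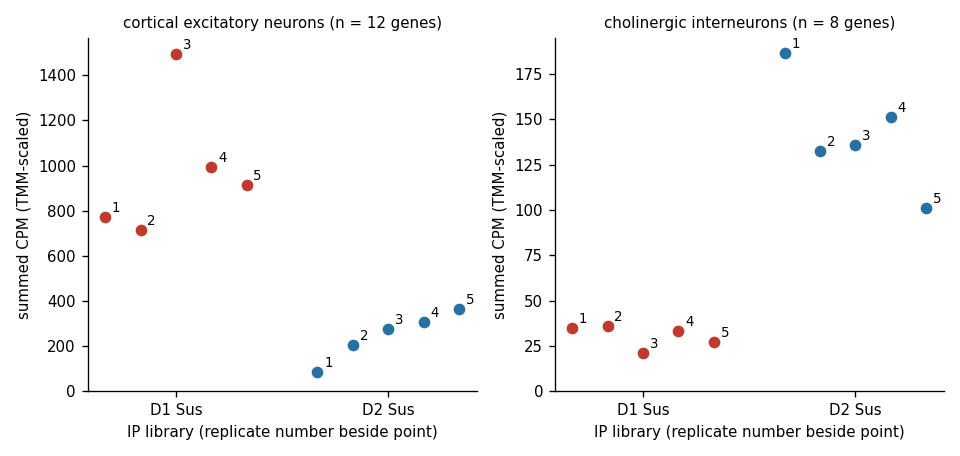
Summed CPM (TMM-scaled) of 12 cortical excitatory neuron markers (left) and 8 cholinergic interneuron markers (right) in each Sus IP library, numbered by replicate. Cortical markers were at 713 to 1494 CPM in D1 Sus and 86.8 to 366 CPM in D2 Sus, and cholinergic markers at 21.1 to 36.3 CPM in D1 Sus and 101 to 187 CPM in D2 Sus. *Slc17a7* made up the larger part of the mean cortical sum in each line.

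GABAergic interneuron markers gave 6 higher in D1 Sus and 1, *Npy*, higher in D2 Sus of 12, with sums of 223 to 262 and 197 to 242 CPM (exact permutation test, p = 0.0238, adjusted p = 0.0536). *Kit* was 1.81-fold higher in D1 Sus (47.8 to 66.9 against 25.01 to 42.6 CPM, adjusted p = 4.03e-04), beside *Pthlh*, *Pvalb*, *Vip*, *Cox6a2* and *Htr3a*. Of 4 tested markers of midbrain dopamine neurons (7 listed), *Aldh1a1* was higher in D1 Sus (4.75-fold, adjusted p = 2.24e-09) and *Th*, tyrosine hydroxylase, higher in D2 Sus (1.82-fold, adjusted p = 2.78e-04), while the factors *En1*, *Pitx3* and *Foxa2* did not pass the filter on low counts. The dopamine marker sums were 12.5 to 17.4 and 13.3 to 25.6 CPM (exact permutation test, adjusted p = 0.438). Astrocyte, oligodendrocyte, microglial and endothelial markers were lower in IPs than in inputs. Astrocyte sums were 65.4 to 116 CPM in D1 Sus and 52.8 to 82.9 CPM in D2 Sus (exact permutation test, adjusted p = 0.119), against 967 to 1170.2 CPM in the Sus inputs, and 2 of 8 markers, *Gja1* and *S100b*, were called toward D1 Sus. *S100b* lost its call when D1 Sus 1, D2 Sus 1, D2 Sus 3 or D2 Sus 4 was left out. Oligodendrocyte sums were 486 to 774 and 398 to 651 CPM (adjusted p = 0.255 by the exact permutation test), against 4210.1 to 5889 CPM in inputs, with *Cldn11* called toward D1 Sus of 8. Microglial markers gave 0 called of 8 and sums of 11.3 to 16.2 and 14.2 to 21.1 CPM (exact permutation test, adjusted p = 0.0857). Endothelial markers gave 1 of 6, *Ly6c1* toward D2 Sus, with sums of 5.71 to 8.67 and 4.59 to 13.5 CPM (exact permutation test, adjusted p = 0.452). Ependymal and choroid plexus markers gave 1 of 5 tested (8 listed), *Ttr* toward D1 Sus, against the sign of the sums of 35.8 to 56.0 and 52.7 to 70.7 CPM (exact permutation test, adjusted p = 0.0536). Without TMM factors their mean sums were 46.7 CPM in D1 Sus IPs and 59.98 CPM in D2 Sus IPs, above the 37.1 to 41.1 CPM of D1 Sus inputs and the 24.0 to 44.1 CPM of D2 Sus inputs. *Ly6c1* and *Ttr* were at or under 2 CPM in every Sus IP library, *Ly6c1* lost its call in each of 7 libraries left out (D1 Sus 1, 2, 3 and 4 and D2 Sus 2, 3 and 5), and *Ttr* lost it in each of 6 (D1 Sus 3 and 4 and D2 Sus 1, 3, 4 and 5).

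The inputs show how far the lines differed before precipitation. Between 3 D1 Sus and 3 D2 Sus inputs, 0 of 15063 genes (0%) were called by edgeR, 518 had an unadjusted p under 0.05, and DESeq2 called 1, *Ttc12*. *Ttc12* was at 2.42, 2.11 and 2.54 CPM in D1 Sus inputs and at 11.3, 9.83 and 5.48 CPM in D2 Sus inputs (log2 fold change -1.91 ± 0.29, adjusted p = 0.0722 by edgeR and 1.41e-06 by DESeq2). *Fat1*, a protocadherin-like protein, had the next smallest p (log2 fold change -0.31 ± 0.07, adjusted p = 1.00). *Drd2* had a log2 difference of -0.28 ± 0.19 and *Drd1* of 0.26 ± 0.15 between the inputs, neither of which passed. Of the 556 genes higher in D1 Sus IPs, 552 were measured in inputs, 4 had an unadjusted p under 0.05 in the same direction and 19 in the opposite one, and their median log2 difference was -0.17. Of the 223 higher in D2 Sus IPs, 217 were measured, 8 and 6 had such a p, and the median was 0.05. Such a p was found for 3.44% of all genes tested in inputs, in either direction, and the counts here were not tested against that share.

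Set against inputs on CPM without TMM factors, 289 of the 556 D1 genes (52%) had a mean higher in D1 Sus IPs than in D1 Sus inputs and lower in D2 Sus IPs than in D2 Sus inputs. A further 247 (44.4%) were lower in D2 Sus IPs than in inputs without being higher in D1 Sus IPs, and 20 (3.60%) were higher in D1 Sus IPs without being lower in D2 Sus IPs. Of the 223 D2 genes, 59 (26.5%) did both, 109 (48.9%) were lower in D1 Sus IPs without being higher in D2 Sus IPs, and 55 (24.7%) were higher in D2 Sus IPs without being lower in D1 Sus IPs. *Pdyn* was of the first kind, with means of 461 in D1 Sus IPs and 191 in their inputs, and of 95.7 in D2 Sus IPs and 163 in their inputs. *Chat* was at 23.9 in D2 Sus IPs and 15.8 in their inputs, and at 2.19 in D1 Sus IPs and 17.9 in their inputs. *Adora2a* was higher than input in the IPs of both lines (781 against 145.2 in D2 Sus, 265 against 173 in D1 Sus). These are means without a test, and poly-A RNA on ribosomes and in whole homogenate need not be scaled alike. The matching shares of all tested genes were not computed. Because the genes were chosen by their difference between the IPs of the lines, part of this split is fixed by that choice.

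Whether the difference between D1 and D2 neurons was particular to susceptible mice was asked in the same model of 28 IPs. D1 Con against D2 Con gave 690 genes (4.85%), 475 higher in D1 and 215 higher in D2, and D1 Res against D2 Res gave 769 (5.41%), 515 and 254. Of the Sus calls, 65.2% were called in Con in the same direction and 66.4% in Res, which is 73.6% of the Con calls and 67.2% of the Res calls. No gene was called in opposite directions. The Sus calls in neither Con nor Res numbered 187, 108 toward D1 and 79 toward D2, and this count is no test of a difference. The test of the difference itself, D1 minus D2 in Sus against D1 minus D2 in Con, gave 0 genes (0%) at an adjusted p under 0.05, and against Res it gave 0 (0%). By edgeR 247 genes (1.74%) and 277 genes (1.95%) had an unadjusted p under 0.05, and by DESeq2 0 genes passed either test after adjustment, with 240 and 282 unadjusted. All of these counts were below the 711 genes that evenly spread p-values would give, so the tests returned fewer small p-values than that. The median SE of these log2 differences was 0.14 in both, so that smaller shifts than a few times this value could not be detected.

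The marker genes kept their direction in the 3 states. *Drd1* had log2 fold changes of D1 over D2 of 1.31 in Con, 1.32 in Res and 1.27 in Sus, and *Pdyn* of 2.38, 2.40 and 2.27. *Drd2* had -1.77, -1.75 and -1.94, and *Penk* -1.37, -1.38 and -1.46. The Sus minus Con difference was -0.04 ± 0.16 for *Drd1*, -0.11 ± 0.23 for *Pdyn*, -0.17 ± 0.12 for *Drd2* and -0.09 ± 0.13 for *Penk*, none of which passed. Over the 556 genes called toward D1 Sus, the median log2 fold change was 1.00 in Sus, 0.88 in Con and 0.87 in Res, and over the 223 toward D2 Sus it was -0.86, -0.71 and -0.77. Since the genes were chosen by their Sus values, a larger median in Sus is fixed in part by that choice. Cortical markers had a median of 1.82 in Sus, 1.68 in Con and 1.24 in Res, with 9, 7 and 6 of 12 called, and cholinergic markers of -2.61, -2.62 and -2.29.

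**Figure D5:**
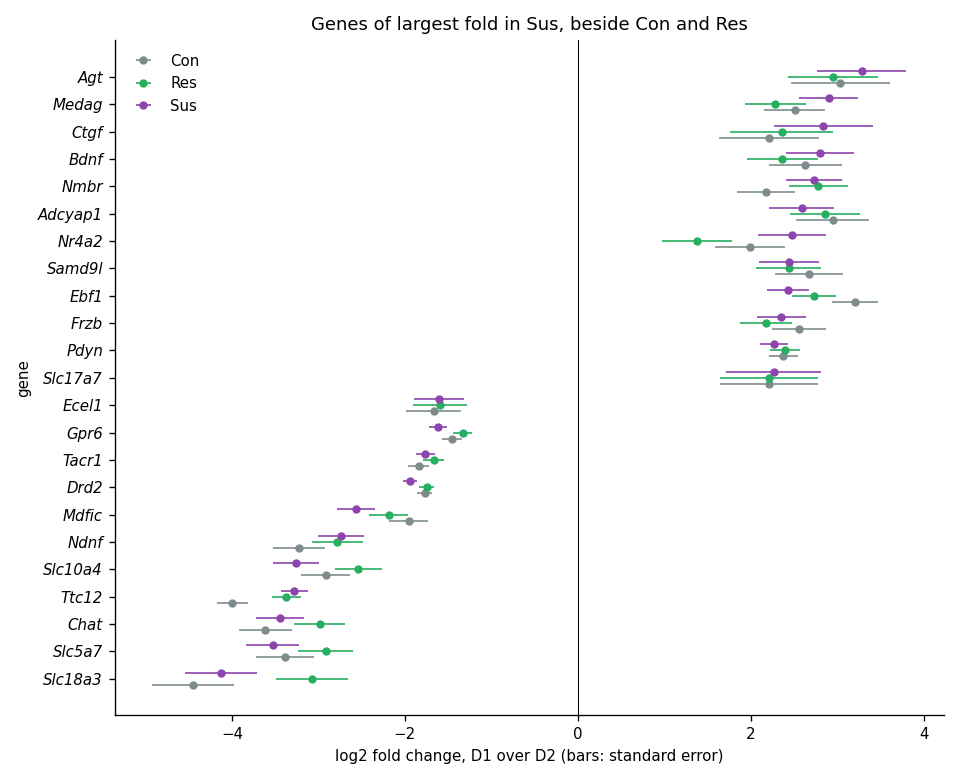
Log2 fold change of D1 over D2 with its standard error for genes of largest fold in Sus, beside the values in Con (gray), Res (green) and Sus (purple). Each gene keeps its side of 0 in all 3 states, for example *Pdyn* at 2.38 in Con, 2.40 in Res and 2.27 in Sus.

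Genes with the smallest unadjusted p for a difference between states are given as values that did not pass (adjusted p = 1.00 for each). *Shisa6* had means of 17.2 CPM in D1 Sus and 9.42 in D2 Sus, 14.0 and 9.41 in Con, and 11.8 and 9.82 in Res. Its log2 fold change of D1 over D2 was 0.87 in Sus, 0.57 in Con and 0.26 in Res, a Sus minus Res difference of 0.60 ± 0.18 (unadjusted p = 0.00236) and a Sus minus Con difference of 0.30 ± 0.18 (unadjusted p = 0.111). *Shisa6* was called in neither Con nor Res. By edgeR's quasi-likelihood test it passed on adjusted p in Con (0.00346) but lay just under the 1.5-fold limit. In Res it passed neither limit (adjusted p = 0.185). *Lxn*, latexin, a carboxypeptidase inhibitor, had 1.06 in Sus, 0.61 in Con and 0.52 in Res (Sus minus Res 0.54 ± 0.17, unadjusted p = 0.00380). *Epha8*, an ephrin receptor, had -0.47 in Sus, -0.20 in Con and -0.04 in Res (Sus minus Res -0.43 ± 0.12, unadjusted p = 0.00157).

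Against Con, *Sema4c*, a transmembrane semaphorin, had log2 fold changes of 0.22 in Sus and -0.17 in Con (difference 0.39 ± 0.11, unadjusted p = 0.00121). *Ttc12* had -3.28 in Sus and -3.999 in Con (difference 0.72 ± 0.24, unadjusted p = 0.00584). *Cdh15* had -0.66 and 0.22 (difference -0.88 ± 0.28, unadjusted p = 0.00399). *Snx9*, *Nkiras2*, *Gtpbp10* and *Orc5* against Con had differences of -0.41 to 0.47, and *Tial1*, *Camkmt*, *A430005L14Rik*, *Kctd21* and *Slc38a7* against Res had -0.54 to 0.43. At this depth and number of libraries no gene was shown to differ between D1 and D2 neurons by a different amount in Sus mice.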

How the data were processed

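RNA was measured in 46 libraries of the NAc, of which 10 (D1 Sus and D2 Sus IPs) are described here, with the other 18 IPs in the same model and 18 inputs in a second. The authors trimmed reads with cutadapt, used STAR for alignment to the mm10 build and HTSeq for counting, with versions not given in the sources used here. The table the authors deposited lists 24552 gene symbols with raw counts. Another 5 entries name no gene, held 18.0 to 28.3% of the reads in the 10 libraries, and were left out. Table columns that matched no sample description numbered 2 and were not used, nor was the table of 4 libraries labelled Sirt1-KO. Samples with an RNA integrity number under 7 had been excluded by the authors. Libraries were stranded, but the strand setting of the counting is not given in the sources used here, so antisense partners may share counts.

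Genes were kept by filterByExpr (minimum count 10, minimum total count 15) in edgeR 4.0.16 (R 4.3.3, limma 3.58.1). The quasi-likelihood test used TMM factors and a mean for each of 6 groups, with robust estimates of the spread. The model held 28 IPs and 14224 genes, and that of the 18 inputs 15063 genes. Standard errors follow from the F statistic. Marker sums were compared with exact permutation tests (scipy 1.17.1). Alternatives were RLE factors, other filters (at least 1 count, or a mean of at least 50), DESeq2 1.42.0, other sets of libraries, glmTreat, the replicate number as a block, and each library left out. CPM was computed here. P-values measure the spread between these pooled libraries. Replicates were compared before use (chi-square per gene 5.19 to 100.5 between replicates), and none was a duplicate. Scripts were tested on simulated data. The members and the 37 gene lists were chosen with earlier results of these data known. Named genes were the 8 markers, the 12 largest folds in each direction among called genes with no overlap and a mean of at least 5 CPM, up to 4 called genes per list by adjusted p, up to 4 genes in each direction of each comparison between states, *Shisa6*, and the inputs' smallest p. Genes listed without values, *Ncam1*, *Sfxn1* and *Hrh2* are outside this rule. Results for some genes that the rule or a list takes in are not reported here. Positions are from GENCODE vM21 and promoters from RefSeq.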

Additional observations from a re-analysis of the deposited data

Results flagged for a closer look

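Sets of 5 values were checked for 1 library far from the other 4, by whether its gap to the nearest value exceeded 0.71 of the range. Of 246 sets (111 genes, 9 marker sums and 3 library measures in each line), 10 stood out, and chance gives about 1 in 20. D1 Sus 3 was the library in 4 of them and D2 Sus 1 in 4.

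D1 Sus 3 was high for *Tbr1* (136 CPM, the others 70.7 to 86.6), *Nrg3* (39.3 CPM, the others 24.5 to 28.6), *Adcy2* (115 CPM, the others 90.0 to 97.0) and *Ier2* (6.27 CPM, the others 1.42 to 2.82). D2 Sus 1 was high within D2 Sus for *Pthlh* (1.03 CPM, the others 0.165 to 0.393), *Lingo2* (14.6 CPM, the others 8.46 to 10.1), *Th* (21.0 CPM, the others 10.9 to 13.7) and the summed markers of GABAergic interneurons (242 CPM, the others 197 to 205). D2 Sus 3 was high for *Chrm4* (87.1 CPM, the others 54.7 to 62.7). *Ankk1* was listed at 0.0363 CPM, 1 count, in D1 Sus 2 and at 0 in the other D1 Sus libraries. Of these genes, *Ier2* alone lost its call when the library named was left out.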

How the results depend on the processing

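The 779 calls of D1 Sus against D2 Sus stayed within 1.5 times that number under RLE factors (791), no filter (795), a mean of at least 50 counts (629), DESeq2 (827) and only the Sus IPs (674). With glmTreat against 1.5-fold 170 genes were called, and with no fold limit 2468, by the construction of these tests. Leaving out single libraries gave 613 (without D1 Sus 3) to 845 calls (without D2 Sus 1). Same-numbered libraries are different mice of different lines, and the numbers are not taken as pairs. Their deviations from the group means correlated at 0.28, 0.37, 0.31, 0.04 and 0.50, all positive, with 2 of 5 D1 Sus libraries closest to their own number. Whether same-numbered libraries shared a batch is not given in the labels and was not tested. With the replicate number as a block 831 genes were called over all IPs and 751 over the Sus IPs alone, the differences between states kept 0, Con gave 687, Res 769 and the inputs 0. The block over the Sus IPs alone ended the call of *Slc17a7* (adjusted p = 0.0679), and those of *Cdh15*, *Col6a1*, *Crh*, *Grin3a*, *Hpca* and *Syt6*, and the block over all IPs that of *Ttr*. In the inputs, DESeq2 called 1 gene and leaving out single libraries gave 0 to 1 calls (1 without D2 Sus input 3). Of 111 named genes, 89 kept their call under every alternative but glmTreat, 59 under that too, and none changed sign. The choice of D1 Sus 3 and D2 Sus 1 to be left out together was made after seeing the data. Marker sums without TMM factors moved by less than 1 SD. Depth limits genes under about 1 CPM, where few counts stand behind a value.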
